A study of Mus musculus with 2 samples.

Results

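Pericytes of the embryonic mouse coronal suture were examined as 176 cells among 16977 cells in all, of which 47 of 8210 came from the E15.5 library and 129 of 8767 from the E17.5 library. The cells were chosen by a rule on measured values. A pericyte was a barcode that carried no deposited cluster label, held at least 1000 UMIs (unique molecular identifiers, each standing for 1 captured transcript) and at least 1000 genes, had at most 7.5% mitochondrial UMIs and at most 3% each of *Hbb* and *Hba* UMIs, and held at least 5 UMIs of *Rgs5* and at least 1 of *Pdgfrb*. These 2 genes chose the cells and are no result here. Since the cells were chosen by expression, the levels of all other genes in them are a description, with no test. Pericytes made up 0.572% of cells at E15.5 (exact binomial 95% interval 0.421 to 0.761) and 1.47% at E17.5 (1.23 to 1.75). The E17.5 barcodes carry 3 numbered suffixes, in which the share was 1.57%, 1.39% and 1.51%, from 24, 50 and 55 cells.

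The study captured cells of wild-type C57/BL6 coronal sutures, the fibrous joints between the frontal and parietal bones, with the 10x Genomics Chromium 3′ system. The E15.5 library came from 10 pooled sutures digested with collagenase II and dispase and depleted of dead cells with a bead kit. The E17.5 library came from sutures of 2 litters, handled in 3 batches, digested with collagenase IV and cleared of debris, doublets and dead cells by flow cytometry. The labels do not say which barcode suffix belongs to which batch. There is 1 library per stage, so no p-value was computed, and every interval below covers counting error alone and not the spread between embryos. Stage, enzyme, sorting, embryos and gene annotation differ together and cannot be told apart. The E15.5 pericytes held 690886 UMIs and the E17.5 pericytes 1768106, with a median of 12623 and 12825 per cell. Cells of the deposited LIG cluster, which the study calls ligament-like, numbered 497 and 675 and had medians of 7115 and 12300. The other labelled cells, which are osteogenic, meningeal and ectocranial mesenchyme, numbered 4838 and 6155 and had medians of 8671 and 12303. No pericyte barcode sequence occurred in both libraries, against 94 barcode sequences among all cells.

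Pericytes are mural cells that sit within the basement membrane of capillaries and small venules, wrapped around the endothelial tube. Endothelial cells release PDGF-B, which acts on the receptor encoded by *Pdgfrb* and recruits and keeps pericytes on the vessel, while Notch ligands on endothelium act on *Notch3* of mural cells. Smooth muscle cells of arteries belong to the same lineage and are marked by a fuller set of contractile proteins.

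The label was checked with *Acta2*, the smooth muscle actin gene, which the rule did not use (chr19:34241090-34255590 in GRCm38, minus strand). This gene cannot part pericytes from smooth muscle cells of the vessel wall. Whether the members include such cells was not tested, and the name pericytes covers all members. *Acta2* had at least 1 UMI in 40 of 47 E15.5 and 114 of 129 E17.5 pericytes. The lowest value was 0, the median 12 and 18 and the highest 472 and 292 UMIs per cell. Levels are given as UMIs per 1000000 UMIs (CPM), summed over the cells of a group. *Acta2* stood at 3163 CPM (3031 to 3298) in pericytes and 45.0 CPM in other labelled cells at E15.5, a 70.2-fold difference (66.0 to 74.6). At E17.5 it was 2654 CPM (2578 to 2731) against 218 CPM, 12.2-fold (11.8 to 12.6). With every cell thinned to 3000 UMIs, *Acta2* was found in 76.6% and 81.4% of pericytes, 7.73% and 26.8% of other labelled cells and 9.75% and 42.2% of LIG cells, leaving out 15 LIG cells and 145 other labelled cells at E15.5 that were shallower. Endothelial cells, which should lack *Acta2* and were taken from 28 and 114 unlabelled cells with at least 2 UMIs of *Pecam1* and 1 of *Cdh5*, had it in 0 of 26 and in 7.89%, at median depths of 13938.5 and 10454.5 UMIs. Without thinning the pericyte shares were 85.1% and 88.4%.

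Cells just outside the rule also carried mural genes. The 17 and 22 unlabelled cells with at least 5 *Rgs5* UMIs and no *Pdgfrb* UMI had 3975 and 2424 CPM of *Acta2*, and 462 and 819 CPM of *Kcnj8*, a potassium channel subunit typical of pericytes. The 10 and 8 cells with *Pdgfrb* and 3 or 4 *Rgs5* UMIs had 1357 and 422 CPM of *Acta2* and 417 and 453 CPM of *Kcnj8*, and the 8 and 12 members with 5 to 7 *Rgs5* UMIs had 2470 and 1139 CPM of *Acta2* and 365 and 354 CPM of *Kcnj8*. Unlabelled cells with no *Rgs5* UMI had 12.1 and 10.9 CPM of *Kcnj8*. No labelled E15.5 cell and 4 labelled E17.5 cells met both gene limits.

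A few members also held many transcripts of another cell type. At E15.5, 4 members carried 370 of the 416 pericyte UMIs of *Col2a1*, the cartilage collagen gene, and 1 cell in each library carried 29 and 46 UMIs of *Tyrobp*, an adaptor of myeloid cells. These members, 5 from the E15.5 and 1 from the E17.5 library, chosen after their values were seen, had 626 and 272 CPM of *Acta2*, below the 3163 and 2654 CPM of all members. Leaving out cells with high Scrublet doublet scores left 44 and 112 members. Whether these are mixed barcodes was not tested, and calls of genes described below that end without these members are named as such.

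Of 5088 genes tested against other labelled cells, 393 (7.72%) were at least 2-fold higher in pericytes in both libraries and 330 (6.49%) at least 2-fold lower in both. A gene was tested when it had, or was expected to have from the other group's level, at least 20 UMIs in the pericytes of each library. A gene low in 1 of the groups could thus pass only through the other. Counts within the lists below are descriptions for that reason. The tested genes had a median log2 ratio of 0.22 and 0.17 in the E15.5 and E17.5 libraries. When the group sums were scaled by median of ratios, the counts were 310 higher and 402 lower. *Myh11*, *Gja4*, *Nrarp* and *Esam* led the genes that were higher, by a rule that ranked the ratio of the library nearer to 1 among genes with at least 50 UMIs in the pericytes of each library. *Myh11*, the smooth muscle myosin heavy chain, was 412-fold (194 to 1005) and 491-fold (306 to 834) higher in pericytes, from 0.179 and 0.228 CPM in other labelled cells to 73.8 and 112 CPM. *Gja4*, the gap junction protein connexin 37, was at 110 and 150 CPM and 701-fold and 261-fold higher. *Fabp7*, a fatty acid binding protein, was at 107 and 184 CPM against 1.32 and 2.1 CPM. The same rule also named *Mcam*, *Rasl12*, *Apold1*, *Sept4* and *Stc1*, and, at the other end, *Gap43*, *Cd55*, *Wnt2*, *Tmeff2*, *Ibsp*, *Clec3b*, *Cxcl14*, *Egfl6*, *Angptl1* and *Efemp1*, the genes with the smallest ratios. *Cxcl14*, a chemokine of fibroblasts, stood at 15.9 and 11.3 CPM against 292 and 176 CPM.

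**Figure D1:**
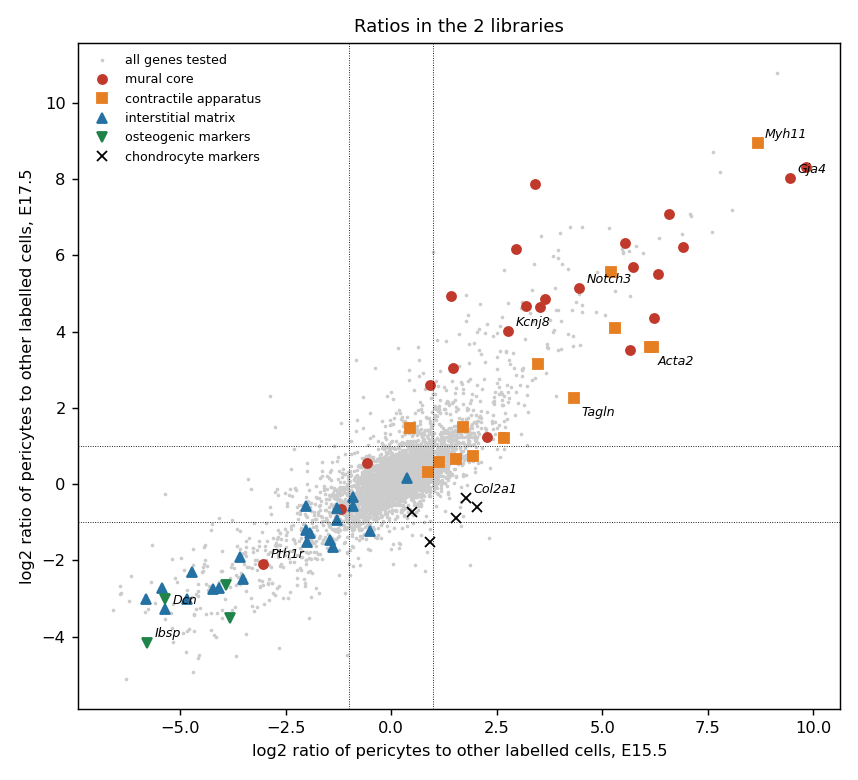
Log2 ratio of pericytes to other labelled cells at E15.5 (x axis) and E17.5 (y axis) for the tested genes, 1 point per gene, with dotted lines at 2-fold. Mural core and contractile genes lie in the upper right, and matrix and osteogenic genes in the lower left.

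The mural core genes, a list of markers of vessel wall cells, were mostly higher in pericytes than in other labelled cells. Of 29 genes on the list 24 passed the filter, of which 20 were higher in pericytes, beside 7.72% of all tested genes. *Pth1r* was lower, and *Cd248*, *Ebf1* and *Zic1* were neither. Members such as *Higd1b* passed only through their pericyte levels, so that count was partly fixed in advance. The list had a median log2 ratio of 3.46 and 4.76. *Kcnj8* and *Abcc9* encode the pore and the sulfonylurea receptor of the vascular ATP-sensitive potassium channel. *Kcnj8* (chr6:142564837-142571614) stood at 352 CPM (309 to 399) in the first library and 675 CPM (637 to 714) in the second, with 718, 679 and 655 CPM in the 3 suffixes, which was 6.81-fold and 16.1-fold above other labelled cells. It was found in 44 of 47 and 128 of 129 pericytes. After thinning, 61.7% and 85.3% of pericytes had a *Kcnj8* UMI, against 12% and 9.73% of other labelled cells and 6.85% and 3.41% of LIG cells. *Abcc9* was at 253 and 204 CPM, 11.5-fold and 25.1-fold higher.

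*Cspg4*, the NG2 proteoglycan, and *Des*, the intermediate filament protein desmin, are classical pericyte markers. *Cspg4* was at 109 CPM (85.4 to 136) and 53.2 CPM (43.0 to 65.1), and its lead over other labelled cells was among the smaller of the list, at 6.27-fold (4.88 to 7.95) and 2.35-fold (1.89 to 2.89). In E17.5 suffix 1 taken alone the *Cspg4* ratio was under 2. *Des* was at 98.4 and 131 CPM, 7.77-fold and 72.0-fold higher, while its level in other labelled cells was 12.7 and 1.82 CPM. *Higd1b*, *Cox4i2* and *Ndufa4l2*, mitochondrial proteins known from pericytes, were higher as well. *Cox4i2* was at 418 and 598 CPM against 5.56 and 29.2 CPM, and *Higd1b* at 40.5 and 73.0 CPM against 0.0448 and 0.228 CPM. *Vtn*, which encodes vitronectin, was 12.5-fold and 29.0-fold higher.

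**Figure D2:**
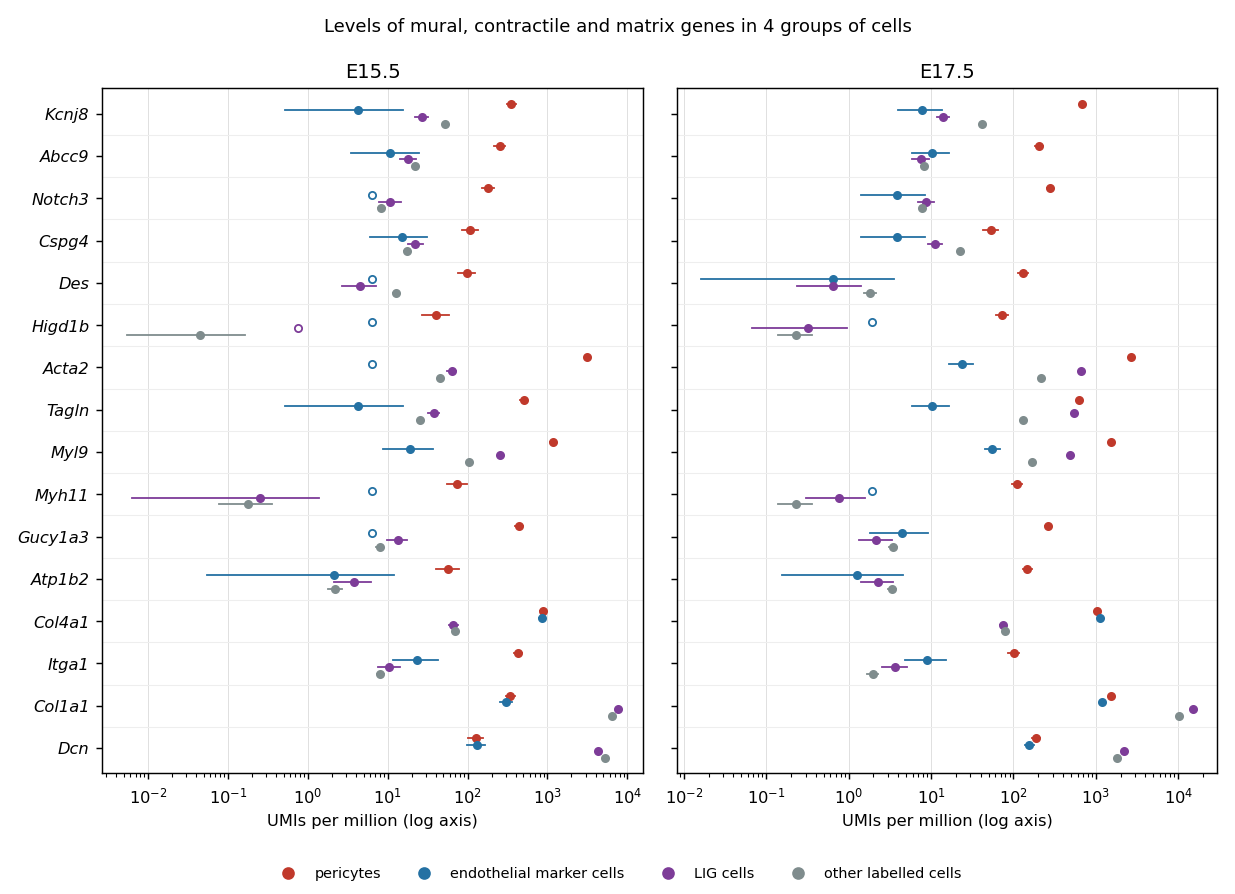
Level of 16 genes in CPM (log axis) in pericytes, endothelial marker cells, LIG cells and other labelled cells of the E15.5 (left) and E17.5 (right) library, with bars for the exact Poisson 95% interval and open circles at the limit of 3 counts where a group had no UMI. Pericytes lie above the other groups for *Kcnj8*, *Abcc9*, *Notch3* and *Acta2*, and below both labelled groups for *Col1a1* and *Dcn*.

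The contractile apparatus was present in part. Of 20 genes 14 passed, of which 9 were higher in pericytes than in other labelled cells and none lower, and *Tpm1*, *Smtn*, *Crip1*, *Csrp1* and *Filip1l* were neither. *Tagln*, the actin-binding protein transgelin, was at 507 CPM against 25.2 CPM at E15.5 (20.1-fold, 17.8 to 22.7) and at 633 CPM against 132 CPM at E17.5 (4.8-fold, 4.51 to 5.11). *Myl9*, the regulatory myosin light chain, was at 1168 and 1520 CPM, 11.1-fold and 8.92-fold higher. *Mylk*, the kinase that activates it, was at 398 and 399 CPM, 39.1-fold and 17-fold higher. *Actg2*, the smooth muscle gamma actin, was at 201 and 246 CPM, 74.2-fold and 12.2-fold higher. *Lmod1*, an actin nucleator of smooth muscle, and *Myh11*, described above, were also higher, the former at 40.5 and 33.9 CPM. Among the genes that did not pass, *Cnn1*, the calponin of contractile smooth muscle, had 15.9 and 5.66 CPM, and *Pln*, a regulator of the calcium pump, had 0 UMIs in both libraries, which allows up to 3 counts in each. The smaller ratios at E17.5 went with higher levels in other labelled cells, where *Acta2* was 4.84-fold higher at E17.5 than at E15.5, against 0.839-fold (0.797 to 0.883) in pericytes.

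Contractile genes are known targets of serum response factor, which binds the CArG box. The promoter table from RefSeq (GRCm38.p6) held 17 of the 20 contractile genes, all but *Tagln*, *Myh11* and *Actg2*. A CArG box, searched on both strands by its standard 10-base pattern, lay in the 250 bases before the start of 2 of these 17 genes (11.8%), against 439 of 27025 genes in the table (1.62%). These 2 stretches are printed with 10 bases on each side and the box in capitals, because *Myl9* is 1 of 6 matched contractile genes that were higher in pericytes and *Filip1l* was neither.
Myl9: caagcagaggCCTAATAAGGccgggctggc
Filip1l: atgccgcgcgCCTTATAAGGctgagcggtg
The *Myl9* stretch is chr2:156775293-156775322, plus strand, upstream of the annotated gene (chr2:156775420-156781658) and in no other gene, and its box begins 161 bases before the RefSeq start, which lies inside the gene as given. The *Filip1l* stretch is chr16:57549170-57549199, plus strand, in an intron of the longest *Filip1l* transcript and of *Cmss1* on the other strand, and its box begins 62 bases before the RefSeq start used in the table, which also lies inside the gene. A match of letters is not a site, and the other promoters lack these letters in this window and no more. *Srf*, *Myocd* and *Mkl1*, which encode factors of this pathway, did not pass the filter on low values, whereas *Tbx18*, a mural cell transcription factor, was at 44.9 and 39.6 CPM and 3.23-fold and 5.67-fold higher. *Mkl2*, on the same list, was called higher than in LIG cells, and lost that call in 7 of 12 alternatives that changed members, cells or scaling.

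The LIG cluster was set beside the pericytes as well. Of 5168 genes tested, 591 (11.4%) were higher in pericytes than in LIG cells in both libraries and 377 (7.29%) lower, and with median of ratios scaling the counts were 447 and 495. Mural core genes were mostly higher in pericytes in both libraries, with 20 of 24 tested genes higher and 1 lower. *Higd1b* passed only through its pericyte level here too, so that count was partly fixed in advance. *Kcnj8* was 13.2-fold and 48.2-fold and *Notch3* 16.9-fold and 32.0-fold above LIG. *Nrarp*, *Gja4*, *Heyl*, *Mcam* and *Fabp7* led the list. Contractile genes, 9 of 14 tested higher, differed more between the libraries. At E15.5 LIG held 63.2 CPM of *Acta2* and 37.6 CPM of *Tagln*, 50.1-fold and 13.5-fold below pericytes. At E17.5 LIG held 654 CPM of *Acta2* and 543 CPM of *Tagln*, so pericytes were 4.06-fold (3.91 to 4.22) and 1.17-fold (1.09 to 1.24) higher and *Tagln* was not called. *Myh11*, at 0.251 and 0.760 CPM in LIG, stayed 294-fold (50.5 to 11855) and 147-fold (70.2 to 371) lower there. Conversely, *Cnn1* at E17.5 was 26.9 CPM in LIG and 5.66 CPM in pericytes. Of 6 ligament-like markers, which the study chose on these samples, 5 passed and were lower in pericytes, among them *Tnmd*, the tendon protein tenomodulin, at 47.8 and 35.6 CPM against 536 and 664 CPM. *Chodl* and *Mkx* had 0 UMIs in E15.5 pericytes and passed there only through their level in LIG. The markers were picked for LIG, so their lower level in pericytes was largely fixed by that choice.

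Ion channels and transporters of the vessel wall included *Kcnj8*, *Abcc9*, *Itpr1*, *Atp1b2* and *Gjc1* among the genes that were higher than in other labelled cells, 6 of 8 tested from a list of 25. *Atp1b2*, a sodium pump subunit, was at 56.4 and 147 CPM, 25.7-fold and 43.9-fold higher. The connexins divided, since *Gja4* and *Gjc1* (connexin 45) were higher, with *Gjc1* at 245 and 143 CPM (6.68-fold and 6.05-fold), whereas *Gja1* (connexin 43) was at 20.3 and 11.9 CPM, 0.0925 and 0.0653 of the level in other labelled cells. *Itpr1*, an inositol trisphosphate receptor, was 3.52-fold and 2.09-fold higher and lost its call with median of ratios scaling, with no limit on *Pdgfrb* and in suffix 2 alone, and without the members with many *Col2a1* or *Tyrobp* UMIs it was under the minimum of 20 UMIs. The voltage-gated calcium channel genes *Cacna1c*, *Cacna1d* and *Cacna1h*, typical of arterial smooth muscle, did not pass the filter.

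Of 29 receptors for vasoactive agents 9 passed, of which 5 were higher in pericytes and 2 lower. *Ednra*, the endothelin A receptor, was at 117 and 124 CPM (3.66-fold and 4.38-fold), and *Agtr1a*, the angiotensin II receptor, at 53.6 and 79.7 CPM (2.59-fold and 4.22-fold). *Adra2a*, an adrenergic receptor, was at 50.7 and 64.5 CPM against 1.5 and 2.96 CPM. *S1pr3*, a receptor for sphingosine 1-phosphate, and *F2r*, the thrombin receptor, were 3.67-fold and 6.80-fold and 4.38-fold and 10.6-fold higher. The lysophosphatidic acid receptors *Lpar1* and *Lpar4* were lower, *Lpar1* at 10.1 and 9.61 CPM against 161 and 110 CPM. *Lpar4* fell short of 2-fold without the cells with high doublet scores and in suffix 2 alone.

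Genes that answer nitric oxide, the endothelial relaxing signal, were among the highest ratios. *Gucy1a3* and *Gucy1b3* encode the subunits of soluble guanylate cyclase. *Gucy1a3* was at 444 and 265 CPM against 7.96 and 3.45 CPM, 55.9-fold (47.8 to 65.3) and 76.6-fold (66.0 to 89.1). *Gucy1b3* was at 162 and 167 CPM, 45.2-fold and 68.1-fold higher. *Pde3a*, a phosphodiesterase that breaks down cyclic nucleotides, was 5.86-fold and 6.76-fold higher, and *Pde5a*, the phosphodiesterase of cyclic GMP, 2.09-fold and 3.90-fold. All 4 of the tested genes among 13 on this list were higher, beside 7.72% of all tested genes. *Gucy1a3* and *Gucy1b3* passed the filter only through their pericyte levels, so that count was partly fixed in advance. *Pde5a* was called neither with median of ratios scaling or without the members that had a *Pecam1* or *Cdh5* UMI. Among 8 other RGS genes, relatives of *Rgs5* that shorten G protein signals, 4 of 7 tested were higher. *Rgs4* was at 66.6 and 114 CPM against 0.829 and 2.47 CPM, and *Rgs16* at 66.6 and 144 CPM against 5.69 and 1.58 CPM. *Rgs7bp* and *Rgs10* were higher by less, and each lost its call under at least 1 other choice of members.

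The signals between pericytes and endothelium were set beside the 28 and 114 unlabelled cells with *Pecam1* and *Cdh5* described above, called endothelial marker cells, for which these 2 genes are no result. Of 5335 genes tested, 429 (8.04%) were higher in pericytes than in these cells in both libraries and 492 (9.22%) lower. *Pdgfb*, the ligand of the receptor in the rule, was at 32.1 and 30.7 CPM in endothelial marker cells and 10.1 and 6.22 CPM in pericytes, 0.316 (0.109 to 0.823) and 0.203 (0.0948 to 0.395) of their level. *Pdgfa* was the reverse, at 201 and 237 CPM in pericytes against 10.7 and 10.9 CPM. *Pdgfra*, the receptor of PDGF-A typical of mesenchyme, was at 4.34 and 10.7 CPM in pericytes and 70.8 and 52.2 CPM in other labelled cells.

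Notch receptors, ligands and targets divided between the groups. *Notch3* (chr17:32120820-32166852) was at 182 and 278 CPM in pericytes and had 0 UMIs in endothelial marker cells at E15.5, at least 28.4-fold lower, and 3.84 CPM at E17.5, 72.5-fold lower (33.1 to 198). Against other labelled cells it was 22.0-fold and 35.3-fold higher. Its family member *Notch1* was at 60.8 and 47.5 CPM, 0.568 and 0.651 of the endothelial level, and *Notch2* was lower than in other labelled cells (18.8 and 15.3 CPM against 51.6 and 33.4 CPM). *Notch2* fell short of 2-fold with no limit on *Pdgfrb* and in suffix 3 alone. *Dll4*, the Notch ligand of sprouting and arterial endothelium, was at 66.3 and 50.6 CPM in endothelial marker cells and had 0 UMIs in pericytes of both libraries, which allows up to 3 counts in each. *Jag1*, another ligand, was at 82.5 and 53.7 CPM in pericytes against 4.28 and 12.8 CPM. The Notch targets *Heyl*, *Hey1* and *Hey2* were higher in pericytes than in either group, *Heyl* at 172 and 199 CPM, which was at least 26.8-fold and 51.7-fold above endothelial marker cells. *Hey2* was at 30.4 and 50.9 CPM and at least 4.74-fold and at least 26.5-fold above them. Without the members with many *Col2a1* or *Tyrobp* UMIs it had 17 UMIs at E15.5, under the minimum of 20, and a level of 29.2 CPM. *Nrarp*, a feedback inhibitor that Notch switches on, was at 136 and 256 CPM in pericytes and 77.0 and 181 CPM in endothelial marker cells, and was called neither between them. *Mfng*, a glycosyltransferase that modifies Notch, had 1 UMI in pericytes of each library, against 109 and 173 CPM in endothelial marker cells.

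Angiopoietin and VEGF genes were also divided. *Angpt2* was at 47.8 and 114 CPM in pericytes, 4.46-fold and 4.67-fold above endothelial marker cells, and *Angpt1*, at 23.2 and 14.1 CPM, did not pass the filter. Their receptor gene *Tek* was at 2.89 and 2.26 CPM in pericytes against 70.6 and 114 CPM. *Kdr*, the main VEGF receptor, had 0 UMIs at E15.5 and 3.39 CPM at E17.5, against 439 and 390 CPM. *Flt1*, the decoy VEGF receptor, was at 76.7 and 20.9 CPM in pericytes, 14.4-fold and 16.6-fold above other labelled cells and 0.317 and 0.0677 of the endothelial level. *Pgf*, a ligand of that receptor, was at 65.1 and 156 CPM, 2.45-fold and 13.5-fold above other labelled cells. Endothelin and sphingosine receptors were paired in the same way, with *Ednra* at least 18.3-fold and 24.3-fold above endothelial marker cells and *Ednrb* at 2.89 and 2.83 CPM against 92.0 and 125 CPM. *S1pr3* was at least 16.5-fold and 40.3-fold above them, and *S1pr1* was at 4.34 and 6.22 CPM against 98.4 and 134 CPM.

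**Figure D3:**
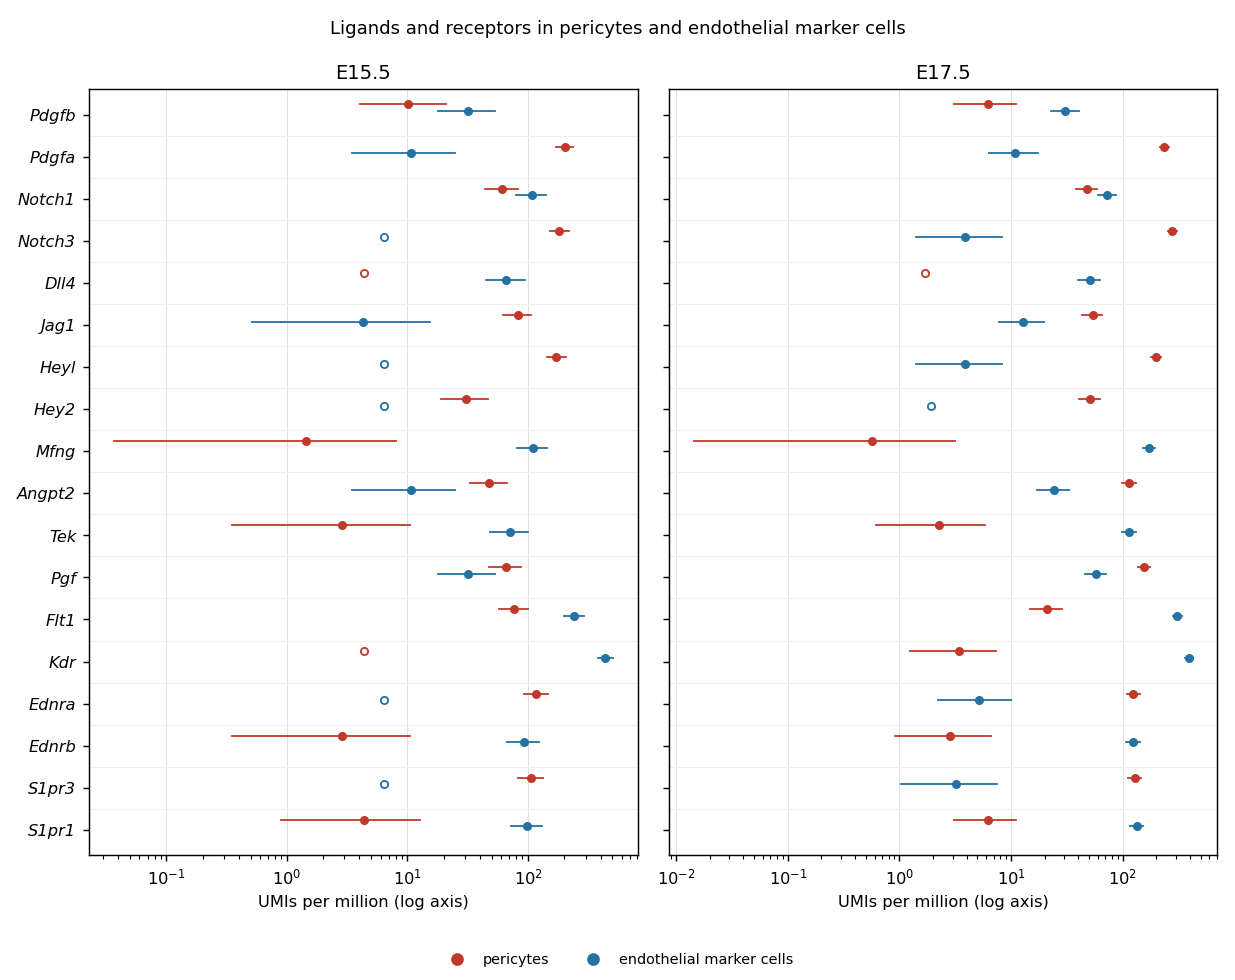
Level of 18 ligand, receptor and target genes in CPM (log axis) in pericytes and endothelial marker cells of the E15.5 (left) and E17.5 (right) library, with bars for the exact Poisson 95% interval and open circles at the limit of 3 counts where a group had no UMI. *Pdgfb*, *Dll4*, *Mfng*, *Tek*, *Flt1*, *Kdr*, *Ednrb* and *S1pr1* lie higher in endothelial marker cells, and *Pdgfa*, *Notch3*, *Jag1*, *Heyl*, *Hey2*, *Angpt2*, *Ednra* and *S1pr3* in pericytes.

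Of 20 genes of the TGF-beta and BMP pathway 13 passed. None was higher than in other labelled cells, beside 7.72% of all tested genes, a share too small to read anything from that count. *Tgfbr2*, *Tgfbr3*, *Ltbp1* and *Id2* were lower, beside 6.49% of all tested genes, and *Id2* fell short of 2-fold in suffix 2 alone. Against endothelial marker cells 3 of 12 tested were higher and 4 lower, beside 8.04% and 9.22%. *Tgfbr2*, the type II receptor, was at 7.24 and 16.4 CPM against 47.1 and 44.8 CPM. Beside endothelial marker cells, *Tgfb1* was at 27.5 and 60.5 CPM in pericytes against 150 and 262 CPM, and *Tgfb2* and *Tgfb3* were the reverse, at 79.6 and 53.7 CPM against 23.5 and 21.8 CPM and at 50.7 and 52.0 CPM against 4.28 and 6.40 CPM.

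Pericytes expressed the collagen of basement membrane, which they share with endothelium. Of 22 basement membrane genes 12 passed, 5 were higher than in other labelled cells and *Sparc* was lower. *Col4a1* was at 884 and 1021 CPM, 12.9-fold (11.8 to 14) and 12.8-fold (12.2 to 13.5) above other labelled cells and 1.03-fold (0.909 to 1.18) and 0.919-fold (0.860 to 0.982) the level in endothelial marker cells. *Col4a2* was 8.61-fold and 8.03-fold above other labelled cells. *Sparcl1*, a matricellular protein, was at 184 and 174 CPM against 17.7 and 3.19 CPM, while its relative *Sparc* was at 3058 and 4591 CPM against 7967 and 9197 CPM. The difference in *Sparc* was close to the limit at E17.5 and fell short of 2-fold in 5 of 12 alternatives. These were an *Rgs5* limit of 3 UMIs, no limit on *Pdgfrb*, leaving out the members with many *Col2a1* or *Tyrobp* UMIs, suffix 1 alone and suffix 3 alone. Of 14 integrin genes 7 passed, and 4 of these were higher. *Itga1*, the collagen receptor subunit, was 52.7-fold and 51.8-fold higher, although its level went from 428 to 101 CPM between the libraries. *Itga7*, a laminin receptor subunit, was at 50.7 and 58.8 CPM against 4.8 and 0.252 CPM.

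The interstitial matrix of fibroblasts went the other way. All 21 genes of this list passed, of which 14 were lower in pericytes than in other labelled cells and none higher, with a median log2 ratio of -2.03 and -1.51. *Col1a1* was at 343 and 1550 CPM against 6355 and 10369 CPM, 0.0540 (0.0473 to 0.0613) and 0.150 (0.144 to 0.155) of their level. *Dcn*, which encodes decorin, was at 127 and 188 CPM against 5183 and 1822 CPM. *Col3a1* was at 727 and 1352 CPM against 2960 and 3078 CPM. Endothelial marker cells, which should hold little of this matrix, had 304 and 1196 CPM of *Col1a1* and 131 and 156 CPM of *Dcn*, close to the pericyte levels, so free RNA and expression at these levels cannot be told apart.

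Chemokine and growth factor genes were mixed. Of 23 genes 13 passed, with *Ccl2*, *Ccl11* and *Cxcl1* higher in pericytes and *Igf1*, *Igf2* and *Ptn* lower. *Igf1* fell short of 2-fold with an *Rgs5* limit of 3 UMIs, in suffix 2 alone and in suffix 3 alone. *Ccl11*, the eosinophil chemokine eotaxin, was at 66.6 and 208 CPM against 18.8 and 9.52 CPM, and its 3 E17.5 suffixes had 63.2, 343 and 146 CPM. *Ccl2*, which recruits monocytes, was at 104 and 153 CPM against 6.43 and 13.0 CPM, with 23.3, 234 and 132 CPM in the suffixes, and fell under 2-fold in suffix 1 alone. At E17.5 it was found in 46 of 129 pericytes, and 7 cells with at least 10 UMIs held 75.2% of its UMIs. *Ptn*, a heparin-binding growth factor of mesenchyme, was at 268 and 385 CPM against 2766 and 1734 CPM. Genes of the response to tissue dissociation also stood higher in places, with 3 of 13 tested (*Junb*, *Hspa1a* and *Zfp36*) above other labelled cells and 7 above LIG, and their summed level was 6175 and 6026 CPM in pericytes against 4795 and 2560 CPM in other labelled cells. *Junb* and *Zfp36* fell under 2-fold without the members with many *Col2a1* or *Tyrobp* UMIs, and none of the 3 was called against other labelled cells with median of ratios scaling. The part of the dissociation response in the chemokine levels was not tested.

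Of 12 proliferation genes, all tested, 5 were higher in pericytes than in other labelled cells (*Mki67*, *Cenpf*, *Cdk1*, *Ccnb1* and *Tpx2*) and 7 neither, 9 were higher than in LIG, and 3 were higher than in endothelial marker cells. *Mki67*, a proliferation marker, was at 145 and 107 CPM against 47.9 and 49.8 CPM, 3.02-fold (2.45 to 3.69) and 2.15-fold (1.85 to 2.48). Thinned to 3000 UMIs, 31.9% (19.1 to 47.1) and 20.9% (14.3 to 29.0) of pericytes had a *Mki67* UMI, against 6.73% and 9.27% of other labelled cells and 3.73% and 6.52% of LIG cells. Endothelial marker cells had it in 15.4% and 7.02%, and without thinning the pericyte shares were 59.6% and 36.4%. *Cdk1*, the kinase that drives entry into mitosis, was at 269 and 244 CPM against 73.9 and 102 CPM. In suffix 2 alone the E17.5 ratio of *Mki67*, *Cdk1*, *Ccnb1* and *Cenpf* was under 2, as it was for *Mki67* in suffix 3, and *Mki67* and *Cenpf* also lost their calls with median of ratios scaling. Of 14 hypoxia and glycolysis genes 10 passed and 4 were higher, namely *Epas1*, *Ndufa4l2*, *Cox4i2* and *Higd1b*. *Epas1*, the hypoxia-inducible factor of vessels, was at 53.6 and 69.6 CPM against 2.94 and 1.39 CPM, whereas the glycolytic genes *Ldha*, *Pgk1*, *Aldoa* and *Eno1* were neither.

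Markers of other cell types were summed over each list. The 12 endothelial markers summed to 359 and 464 CPM, against 4930 and 7131 CPM in endothelial marker cells and 121 and 75.3 CPM in other labelled cells, and *Cldn5* and *Tie1* had 0 UMIs in E15.5 pericytes. Of 5 that passed against other labelled cells, 3 (*Esam*, *Ecscr* and *Flt1*) were higher and *Tek* was lower. All 12 were lower than in endothelial marker cells. *Pecam1* and *Cdh5* are on the list and chose those cells, so they are no result in that count or in the sum of those cells. *Ecscr*, an endothelial surface protein, was at 33.3 and 35.1 CPM against 5.54 and 1.99 CPM. *Esam*, an adhesion molecule, was at 159 and 259 CPM, 134-fold and 135-fold above other labelled cells, and was found in 32 of 47 and 106 of 129 pericytes. In all, 7 and 11 members had a UMI of *Pecam1* or *Cdh5*, and *Ptprc*, the pan-leukocyte marker, was found in 1 member of each library. Of 13 myeloid and mast markers 1 passed, *Tyrobp*, whose ratio of 4.48 at E15.5 became 0.782 without the members with many of its or *Col2a1* UMIs. *Mmp9*, a matrix protease known from osteoclasts, was at 70.9 and 63.3 CPM against 5.51 and 5.27 CPM, with 71 of 112 UMIs at E17.5 in 3 cells. The osteogenic markers, chosen by the study on these samples, were lower in 4 of 4 tested, with *Ibsp*, the bone sialoprotein, at 31.8 and 104 CPM against 1740 and 1851 CPM. They were picked for clusters among the labelled cells, which favours that direction. Of 4 tested arachnoid and dura markers, also from the study, 3 were lower, no glial, neuronal or skeletal muscle marker passed, and the 4 haemoglobin genes were neither. Chondrocyte markers summed to 1443 CPM at E15.5 and 216 CPM without the 5 members named above, beside 461 CPM in other labelled cells and 1476 CPM in endothelial marker cells.

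Pericytes varied widely in their contractile genes. The 20 contractile genes took 0.189% to 4.12% of a cell's UMIs at E15.5, with a median of 0.911%, and 0.267% to 5.10% at E17.5, with a median of 0.833%, a 21.8-fold and 19.1-fold span. The lowest E15.5 value came from the member with many *Tyrobp* UMIs, and the next lowest was 0.290%, so the E15.5 span rests partly on that cell. The values formed a range, and 20 of 129 E17.5 cells lay within 10% of the lower of the limits used to divide it. Across the cells of a library the share had a Spearman correlation with the share of mural core UMIs of -0.03 and 0.29, and with the total UMIs of 0.17 and -0.06, given as a description over 47 and 129 cells that share a library. The 5 cells with the most *Myh11* held 82.4% of its 51 UMIs at E15.5, and 13 cells held 60.6% of its 198 UMIs at E17.5.

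**Figure D4:**
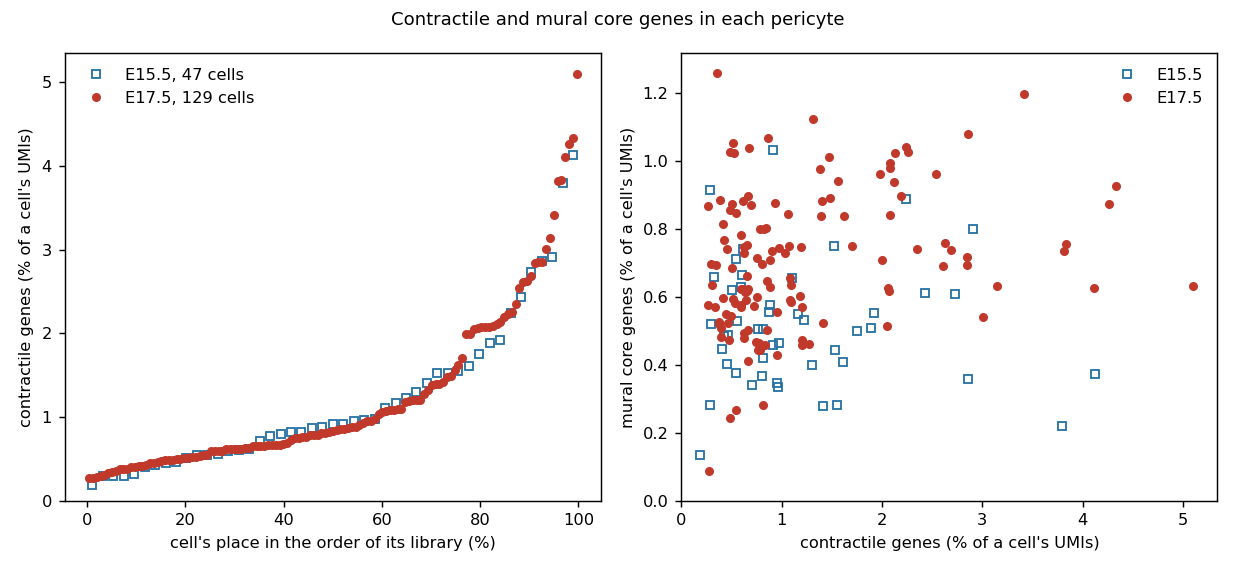
Left, share of each pericyte's UMIs in the 20 contractile genes (%), in the order of the cells of its library. Right, that share (x axis) against the share in the mural core genes (y axis), 1 point per cell, with open squares for E15.5 and filled circles for E17.5. The E15.5 shares span 0.189% to 4.12% and the E17.5 shares 0.267% to 5.10%. The lowest E15.5 point is the member with many *Tyrobp* UMIs.

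Cells were divided by this share into E15.5 groups of 16, 16 and 15 and E17.5 groups of 43, 43 and 43, and the highest group was set against the lowest. The contractile genes made the division, so their differences are no result. Of 2014 other genes tested, 49 (2.43%) were at least 2-fold higher in the highest group in both libraries and 22 (1.09%) at least 2-fold lower. *Cav1*, which encodes the caveolae coat protein caveolin 1, was at 15.6 and 357 CPM in the lowest and highest E15.5 group and at 89.8 and 399 CPM in those of E17.5, 22.9-fold (7.59 to 113) and 4.44-fold (3.27 to 6.11). The small heat shock genes *Cryab* and *Hspb1* were 8.40-fold and 4.38-fold and 7.55-fold and 2.78-fold higher. *Flna*, the actin crosslinker filamin A, was 2.75-fold and 2.45-fold higher, and *Ppp1r14a*, an inhibitor of myosin phosphatase, 2.49-fold and 4.75-fold. *Nrarp* was 3.01-fold and 4.23-fold higher, and *Jag1* was called as well, which made 2 of 5 tested Notch genes. *Parm1*, *Col8a1*, *Prkcdbp* and *Fabp5* completed the 10 largest ratios among genes with at least 50 UMIs in the highest group of each library.

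The lowest group held more of fewer genes. *Cygb*, the globin of fibroblast-like and stellate cells, was at 530 and 77.1 CPM in the lowest and highest E15.5 group and at 303 and 127 CPM in those of E17.5. *Col6a1* was at 265 and 89.3 CPM and at 517 and 213 CPM. The dissociation response genes *Fos*, *Jun* and *Ier2*, and *Klf6*, which is not on that list, were called neither. They were also among the 10 smallest ratios of genes with at least 50 UMIs in the lowest group of each library. *Fos* was at 0.630 and 0.510 and *Ier2* at 0.643 and 0.350 of the lowest group's level. Leaving out the members with many *Col2a1* or *Tyrobp* UMIs took the number of genes lower in the highest group from 22 to 7, of which 6 were in both, *Cygb*, *Col6a1* and *Col6a2* among them.

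The stages were compared last, with the other cells of each library as a reference. A gene was counted as higher (or lower) at E17.5 when its ratio to E15.5 was at least 2 (at most 0.5) in each of the 3 suffixes and at least 2 (at most 0.5) times the ratio in other labelled cells. Of 7707 genes tested, 234 (3.04%) were higher and 41 (0.532%) lower. Of the 234, 150 were also counted without the members with many *Col2a1* or *Tyrobp* UMIs. With an *Rgs5* limit of 3 or 10 UMIs, 167 and 133 of the 234 were counted again. When the ratio also had to differ from that in endothelial marker cells by the same factor, a rule added after seeing the data, 153 (1.99%) and 15 (0.195%) were counted. *Igf2*, an imprinted growth factor gene, went from 8.68 to 472 CPM in pericytes, 54.4-fold (24.9 to 149), and 42.5 and 1933 CPM in other labelled cells, so it was not counted.

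The genes that were higher at E17.5 under both rules included *Steap4* and *Vtn*. *Steap4*, a metalloreductase of the cell membrane, went from 13.0 CPM (5.96 to 24.7) to 85.4 CPM (72.3 to 100), 6.56-fold (3.36 to 14.6), with 83.1, 76.6 and 93.9 CPM in the suffixes, and was found in 7 of 47 and 73 of 129 cells. *Vtn* went from 34.7 to 265 CPM, 7.64-fold (5.07 to 12), with 136, 291 and 292 CPM in the suffixes, and from 2.78 to 9.14 CPM in other labelled cells. Of 27 tested mural core genes 4 were higher, namely *Vtn*, *P2ry14*, *Foxc1* and *Anpep*, the last of which was not counted without the members with many *Col2a1* or *Tyrobp* UMIs. *P2ry14*, a receptor for nucleotide sugars, went from 10.1 to 50.3 CPM. *Il34*, a growth factor for macrophages, went from 7.24 CPM (2.35 to 16.9) to 58.3 CPM (47.5 to 70.7), and *Gpx3*, a secreted peroxidase, from 10.1 to 96.1 CPM with 106, 103 and 86.3 CPM in the suffixes. *Spp1*, which encodes osteopontin, went from 4.34 to 93.3 CPM, with 206, 54.5 and 83.7 CPM in the suffixes, and 5 cells held 61.2% of its E17.5 UMIs.

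Other differences between the stages were shared with endothelial marker cells. *Nrp1*, a co-receptor of VEGF and semaphorins, went from 130 to 394 CPM in pericytes (3.02-fold, 2.42 to 3.81) and from 135 to 436 CPM in endothelial marker cells. *Col1a1*, *Eln*, *Mfap4* and *Fbln2*, the 4 interstitial matrix genes that were higher at E17.5, were not higher under the second rule, and *Col1a1* went from 304 to 1196 CPM in endothelial marker cells. The part of free RNA in these differences was not tested. All 6 chondrocyte markers were lower at E17.5, with *Col2a1* at 602 and 28.3 CPM, and none under the second rule, since endothelial marker cells had 623 and 25 CPM. Without the members with many *Col2a1* or *Tyrobp* UMIs the E15.5 level was 77.3 CPM, none of the 6 markers was counted, and the number of genes lower at E17.5 was 26, of which 18 were among the 41.

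Of 15 tested contractile genes 0 were counted in either direction, beside 3.04% and 0.532% of all tested genes, a share too small to read anything from that count. *Notch3* was 1.53-fold (1.25 to 1.87) and *Kcnj8* 1.92-fold (1.67 to 2.21) higher at E17.5, and *Des* 1.33-fold (1.01 to 1.77). *Cspg4* was 0.490-fold (0.358 to 0.672) and *Nes*, the intermediate filament of progenitors, 0.508-fold (0.392 to 0.659). *Itga1* had 0.236-fold (0.195 to 0.285) of its E15.5 level, and since it had 0.24-fold in other labelled cells it was not counted.

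**Figure D5:**
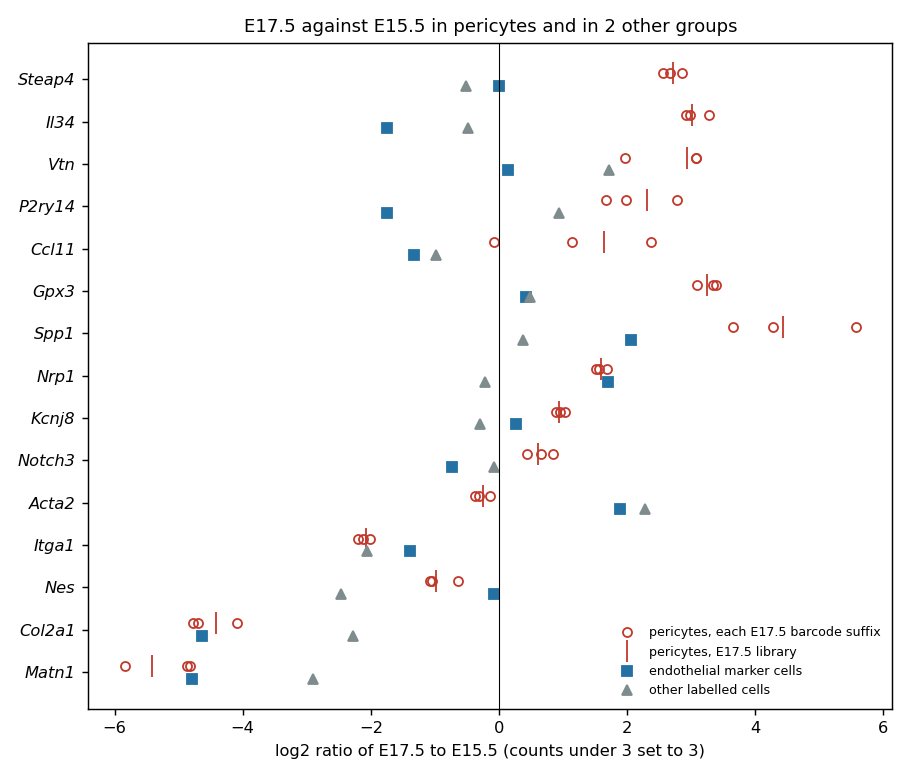
Log2 ratio of E17.5 to E15.5 (x axis, counts under 3 set to 3) of 15 genes in pericytes of each E17.5 suffix (open circles) and of the whole library (bars), in endothelial marker cells (squares) and in other labelled cells (triangles). *Steap4*, *Il34*, *Vtn* and *P2ry14* lie to the right in pericytes of all 3 suffixes, while *Nrp1* and *Col2a1* lie beside the endothelial marker cells.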

How the data were processed

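Whole-number UMI counts per gene and cell, deposited by the authors, were analysed for the E15.5 and E17.5 libraries. The authors aligned reads to mm10 with Cell Ranger (3.1.0 in the E15.5 file header) and labelled cells after clustering in Seurat 3.2.0. Here, counts were summed per group and expressed as CPM with exact Poisson 95% intervals, and ratios were given exact conditional binomial intervals. Genes were matched by identifier (27514 in both libraries, 1027 with differing symbols). Counts under 3 were set to 3 for calls of 2-fold. With 1 sample per stage no test was possible, and molecules of 1 library are not replicates. Members and gene lists were chosen with earlier results of these data known. Genes named were list members, the 15 largest and 10 smallest ratios to other labelled cells, the 10 largest to LIG and up to 10 per direction for stage and contractile share, with at least 50 UMIs for the ratios. Scrublet, run in scanpy 1.11.5, marked likely doublets (scores above the 94th percentile, expected rate 0.06), which were kept and left out as an alternative. Other alternatives changed the limits on members, cells, scaling, minimum and fold. The ratio, its interval and the 2-fold limit were tested on simulated counts of each library. The rules across libraries, suffixes and contractile groups, the thinning and the promoter search were not. Python 3.11.15, numpy 2.4.6, scipy 1.17.1 and pandas 2.3.3 were used. A gene of the lists is not reported here.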

Additional observations from a re-analysis of the deposited data

Results flagged for a closer look

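For 8 genes the ratio of pericytes to other labelled cells was past 2-fold in opposite directions at E15.5 and E17.5. The difference between the stages was not tested, since each stage is 1 library. *Kitl*, the ligand of the receptor Kit, had ratios of 0.138 and 5, from 13.0 and 23.2 CPM in pericytes and 94.6 and 4.64 CPM in other labelled cells. *Ntrk2*, a neurotrophin receptor, had ratios of 0.147 and 2.82, from 11.6 and 45.2 CPM in pericytes and 78.6 and 16.1 CPM in other labelled cells. *Dlk1*, a membrane protein of progenitors, had ratios of 0.389 and 2.02, from 1618 and 2021 CPM in pericytes and 4157 and 1001 CPM in other labelled cells. *Pcdh19* had ratios of 0.306 and 2.02, and *Ldb2* ratios of 0.436 and 3.05. The cartilage genes *Col9a2* (3.15 and 0.464), *Lect1* (3.66 and 0.231) and *Hapln1* (4.96 and 0.379) went the other way, and without the 5 members with many *Col2a1* or *Tyrobp* UMIs the pericyte level at E15.5 was 42.9 CPM for *Col9a2* and 17.2 CPM for *Lect1*.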

How the results depend on the processing

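Of the values of the main results under the alternatives, 90 stayed within 1.5 times or the counting interval and 33 moved. Against other labelled cells the counts of higher and lower genes were 5918 and 578 with no minimum, 190 and 189 with 50 UMIs, 824 and 533 at 1.5-fold and 148 and 144 at 4-fold, and 209 genes were lower with suffix 1 alone. Against LIG they were 3411 and 642, 278 and 207, 1137 and 600, and 211 and 156 under the same 4 settings. For stage they were 85 and 22 with 50 UMIs, 615 and 171 at 1.5-fold, 19 and 11 at 4-fold, 396 and 66 with the E17.5 suffixes pooled, and 153 and 15 with the endothelial reference, and 63 were lower with no minimum and 26 without the members with many *Col2a1* or *Tyrobp* UMIs, as were 7 for contractile share. Median of ratios scaling gave 310 and 402, 447 and 495, and 184 and 46. Without thinning, *Acta2* was found in 88.4% of E17.5 pericytes and *Mki67* in 59.6% and 36.4%. Of the values of single genes 8920 stayed, 366 moved and 9 reversed: *Tyrobp* against other labelled cells at E15.5 (0.663 with 10 *Rgs5* UMIs, 0.782 without those members) and at E17.5 (0.968 in suffix 3), *Tyrobp* against LIG at E15.5 (0.570 and 0.672), *Bglap* against other labelled cells (1.03), *Mcm5* (0.730) and *Pgk1* (0.847) against LIG, all at E17.5 in suffix 1, and *Fbln2* for stage (0.571 with 3 *Rgs5* UMIs). The cause was not tested. A change of the minimum, of the fold or of the rule for stage leaves a gene's ratio as it was, so those values could only stay. The 8920 include them. Median of ratios scaling divides all ratios of a library by the same number, and every value stayed under it. Across 12 alternatives that changed members, cells or scaling, 63 of 77 list genes higher than in other labelled cells and 31 of 38 lower kept a ratio past 2-fold. The minimum of 20 UMIs was not applied again there, so *Hey2* is among the genes that kept it. Over all tested genes, 251 of 393 higher and 183 of 330 lower were called again with suffix 1 alone. No paired analysis was possible because each stage is 1 library. Depth and the 47 E15.5 cells limit genes of low level.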
